A study of Mus musculus with 10 samples.

Results

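CXC chemokines are small secreted proteins that steer leukocytes, and 10 of their genes were followed here: Cxcl1, Cxcl2, Cxcl3, Cxcl5, Ppbp, Cxcl9, Cxcl10, Pf4, Cxcl14 and Cxcl16. They were taken by symbol from a table of 24385 genes, and all 10 had an entry. The cells were dendritic cells grown from the bone marrow of female wild-type C57BL/6 mice, 8 to 10 weeks old, in medium containing GM-CSF at 20 ng/mL. On day 6 the immature cells that did not adhere were collected and exposed for 24 h either to AMLE, a leaf extract of apple mango, at 400 μg/mL, or to the vehicle DMSO at 0.04%. Both groups shared the GM-CSF culture, and the extract is known here only by its name. RNA was sequenced from 3 libraries per group and open chromatin by ATAC-seq, in which a transposase cuts accessible DNA, from 2 libraries per group. GM-CSF cultures hold dendritic cells, macrophages and granulocyte precursors side by side, and the labels name no sort. Nothing in the labels ties a replicate to its own mouse or culture, so the p-values describe the spread between these libraries, which may be technical.

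The family falls into roles. Chemokines with a glutamate-leucine-arginine motif ahead of the paired cysteines bind the receptor CXCR2 and draw neutrophils. Among them are Cxcl1, Cxcl2, Cxcl3 and Cxcl5, and Ppbp, whose platelet-stored product is trimmed to a neutrophil attractant. Cxcl9 and Cxcl10 are induced by interferons and draw activated T cells and natural killer cells through CXCR3. Pf4 encodes platelet factor 4, a granule protein of megakaryocytes and platelets that is also made by some myeloid cells. Cxcl16 is made as a membrane protein that binds CXCR6 and is shed by ADAM10, and Cxcl14 is mainly an epithelial chemokine. In myeloid cells the neutrophil-attracting genes are classic targets of NF-kB, while Cxcl10 answers both to NF-kB and to interferon signalling.

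The promoters are shown first because the members differ in the motifs they carry and in whether a peak lay over them. RefSeq promoters (GRCm38.p6, which is mm10, as used for the deposited peaks) were matched by symbol for 8 of the 10 members, all but Cxcl5 and Cxcl16. Each line gives the 250 bases before the gene start, 5′ to 3′ on the gene's strand. Capitals mark matches on either strand to the NF-kB consensus or to the interferon response element core GAAANNGAAA. Overlapping matches run together in the capitals. The Cxcl1, Cxcl2 and Cxcl3 windows lie on the plus strand at chr5:90890995-90891244, chr5:90903649-90903898 and chr5:90785851-90786100. The Ppbp window is on the same strand at chr5:90768268-90768517, and that of Cxcl10 on the minus strand at chr5:92348890-92349139.

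Cxcl1: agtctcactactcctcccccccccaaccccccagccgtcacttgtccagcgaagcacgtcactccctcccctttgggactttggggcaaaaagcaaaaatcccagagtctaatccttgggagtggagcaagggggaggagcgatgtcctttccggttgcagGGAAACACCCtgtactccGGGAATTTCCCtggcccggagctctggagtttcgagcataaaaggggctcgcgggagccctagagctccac
Cxcl2: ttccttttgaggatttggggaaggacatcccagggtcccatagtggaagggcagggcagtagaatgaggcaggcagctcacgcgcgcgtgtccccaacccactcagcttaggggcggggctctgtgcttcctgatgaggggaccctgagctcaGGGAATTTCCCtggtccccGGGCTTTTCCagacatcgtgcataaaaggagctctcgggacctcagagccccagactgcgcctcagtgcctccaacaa
Cxcl3: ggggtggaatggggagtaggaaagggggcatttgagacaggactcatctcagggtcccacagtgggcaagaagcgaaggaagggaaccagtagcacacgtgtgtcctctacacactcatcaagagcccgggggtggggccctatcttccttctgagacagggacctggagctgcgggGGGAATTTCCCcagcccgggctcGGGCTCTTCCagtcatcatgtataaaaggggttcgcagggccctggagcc
Cxcl10: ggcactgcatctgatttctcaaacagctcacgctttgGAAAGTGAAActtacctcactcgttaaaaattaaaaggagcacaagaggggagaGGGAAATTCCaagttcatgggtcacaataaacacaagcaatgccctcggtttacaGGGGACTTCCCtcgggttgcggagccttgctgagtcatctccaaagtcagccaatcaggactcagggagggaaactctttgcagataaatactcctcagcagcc
Ppbp: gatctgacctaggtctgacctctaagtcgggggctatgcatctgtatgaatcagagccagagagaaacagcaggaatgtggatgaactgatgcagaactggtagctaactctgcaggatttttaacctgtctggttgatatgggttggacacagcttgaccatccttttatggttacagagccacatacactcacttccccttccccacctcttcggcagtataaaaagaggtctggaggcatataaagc

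Cxcl1, Cxcl2 and Cxcl3 shared 2 identical matches to the NF-kB consensus, GGGAATTTCC and, shifted by 1 base, GGAATTTCCC. The former lay 71 to 62 bases before the start of Cxcl1, 97 to 88 bases before that of Cxcl2 and 73 to 64 bases before that of Cxcl3. Each of the 3 had a further match that overlapped neither: GGAAACACCC in Cxcl1, GGGCTTTTCC in Cxcl2 and GGGCTCTTCC in Cxcl3. The Cxcl1 letters are those of the gene's strand, and the consensus matches there on the reverse strand. Cxcl10 held GGGAAATTCC and GGGGACTTCC, together with the interferon element GAAAGTGAAA at 213 to 204 bases before its start and the AP-1 motif TGANTCA as TGAGTCA. Cxcl9 held 1 NF-kB match, and the window of Cxcl14 held an interferon element and the gamma-activated site TTCNNNGAA. Neither NF-kB nor interferon element letters occurred in the Ppbp and Pf4 windows, and Ppbp had TATAAA at 30 to 25 bases before its start. In all, 5 of the 8 windows held an NF-kB match, against 23.2% of 32851 RefSeq promoters searched the same way. The interferon element was in 2 of the 8 and in 2.98% of all promoters, AP-1 in 2 and in 6.75%, the gamma-activated site in 1 and in 7.02%, and TATAAA in 3 and in 12.4%. These are matches of letters and do not show binding.

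After AMLE all 5 neutrophil-attracting chemokine genes and Cxcl16 rose, and Cxcl10 fell. In a fit over the 13075 genes that passed a filter on low counts, 8 members were tested, of which 6 were called higher and 1 lower (edgeR quasi-likelihood test, Benjamini-Hochberg adjusted p below 0.05). Over all tested genes 23.0% were called higher and 25.6% lower. Of the members called higher, 5 rose at least 2-fold, as did 5.52% of all tested genes. Cxcl5 is in these counts only because its AMLE libraries passed the filter. Every AMLE library lay above every DMSO library for 6 members and below for 1, against 28.4% and 31.4% of all tested genes. Cxcl9 and Cxcl14 did not pass the filter, and Pf4 was tested and not called. Levels are given as CPM, a gene's reads scaled to the library's effective total, and log2 fold changes are AMLE minus DMSO. The genes' transcript lengths were not used, so levels are compared between libraries and not between genes.

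**Figure D1:**
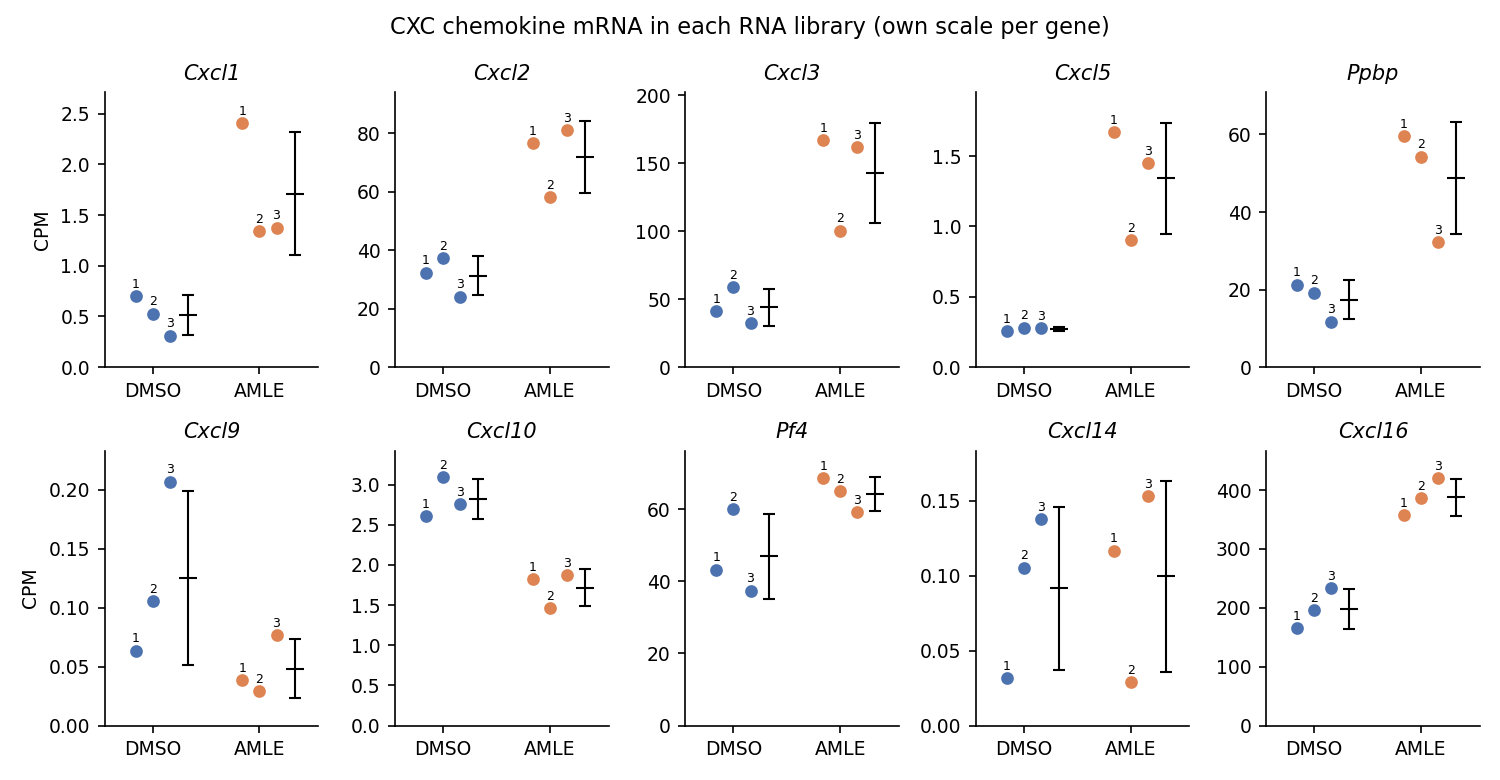
Levels of the 10 CXC chemokine genes in CPM (vertical axes, own scale per gene) in the 3 DMSO (blue) and 3 AMLE (orange) RNA libraries. Points are libraries with their replicate number, and bars are mean ± SD. The groups are apart for Cxcl1, Cxcl2, Cxcl3, Cxcl5, Ppbp and Cxcl16 (higher in AMLE) and for Cxcl10 (lower), and overlap for Cxcl9, Pf4 and Cxcl14.

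Cxcl3 stood at 41.0, 58.8 and 32.4 CPM in DMSO replicates 1 to 3 and at 167, 100.3 and 162 CPM in the AMLE replicates. The lowest AMLE library, replicate 2, was still above the highest DMSO library. The rise was 3.24-fold (log2 fold change 1.70 ± 0.27, SE; edgeR adjusted p = 0.0024). With the replicate number as a block the size was the same (1.70) but the edgeR adjusted p was 0.053. Without both libraries numbered 3 it was 1.43, with an edgeR adjusted p of 0.073.

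Cxcl2, which encodes the neutrophil attractant MIP-2, stood at 32.4, 37.3 and 24.1 CPM in DMSO and 76.7, 58.1 and 81.2 in AMLE. It rose 2.30-fold (1.20 ± 0.18, edgeR adjusted p = 0.0021). As for Cxcl3, DMSO replicate 2 was the highest vehicle library and AMLE replicate 2 the lowest extract library. The ratio of Cxcl3 to Cxcl2 counts within a library does not depend on scaling. It was 1.27, 1.58 and 1.34 in DMSO and 2.18, 1.73 and 1.99 in AMLE, higher in every AMLE library than in any DMSO library. This ratio was chosen after its values were seen and was not tested.

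Cxcl1 and Cxcl5 were counted in few reads. Cxcl1, which encodes KC, had 22, 15 and 9 counts in DMSO and 62, 46 and 36 in AMLE, or 0.699, 0.527 and 0.310 against 2.41, 1.34 and 1.38 CPM. It rose 3.27-fold (1.71 ± 0.37, edgeR adjusted p = 0.0074). Cxcl5, which encodes the attractant LIX, had 8 counts in each DMSO library and 43, 31 and 38 in AMLE. Its rise was 4.85-fold (2.28 ± 0.32, edgeR adjusted p = 0.0013), from 0.270 ± 0.014 to 1.34 ± 0.39 CPM (SD, n = 3). Its DMSO counts were below the minimum of 10, so Cxcl5 passed the low-count filter only through its AMLE libraries. For both genes AMLE replicate 1 was the highest library. Cxcl1, Cxcl2 and Cxcl3 are related copies, and the treatment of reads that match several of them is unknown, which makes their separate levels uncertain.

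**Figure D2:**
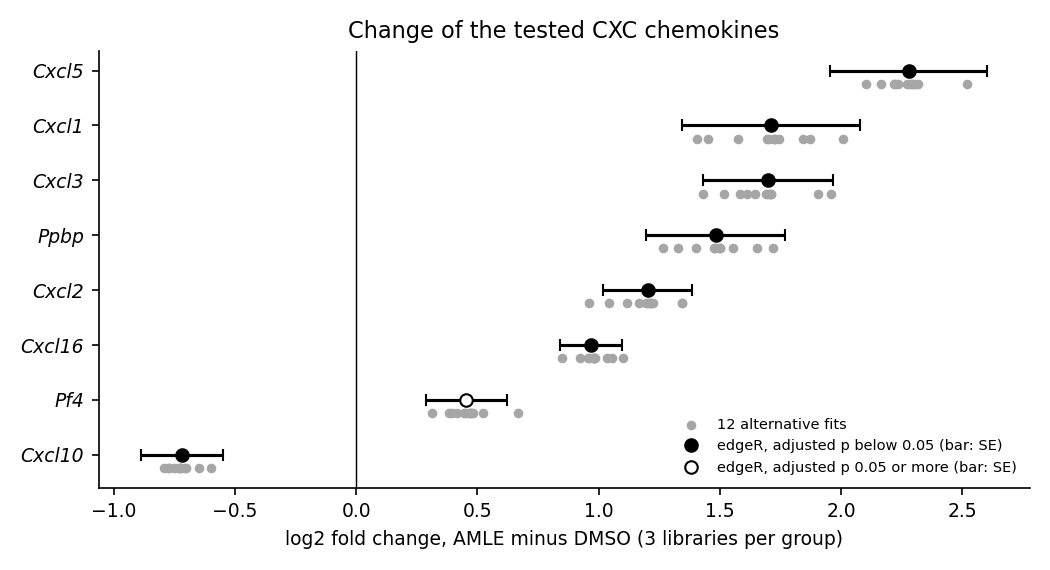
Log2 fold change of the 8 tested CXC chemokines (horizontal axis, AMLE minus DMSO) in edgeR with its SE, filled where the adjusted p is below 0.05. Grey points are the 12 alternative fits. Cxcl5 has the highest value (2.28), Cxcl10 is the only one below 0 (−0.72), and Pf4 (0.45) is open.

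Ppbp and Pf4 are neighbours on chromosome 5, 2.37 kb apart, and both are classic platelet genes. Ppbp stood at 21.3, 19.2 and 11.7 CPM in DMSO and 59.5, 54.2 and 32.2 in AMLE. It rose 2.79-fold (1.48 ± 0.29, edgeR adjusted p = 0.0054), and replicate 3 was the lowest library of either group. Pf4 stood at 43.2, 60.1 and 37.4 CPM in DMSO and 68.5, 64.9 and 59.2 in AMLE, where DMSO replicate 2 was above AMLE replicate 3. Its log2 fold change of 0.45 ± 0.17 was not called in edgeR (adjusted p = 0.060). It was called with a replicate block (0.47, edgeR adjusted p = 0.027), without DMSO replicate 2 (0.67, adjusted p = 0.0042), in DESeq2 (adjusted p = 0.015) and in limma-voom (0.039). Over its 12 alternatives the adjusted p of Pf4 ran from 0.0042 to 0.16. The ratio of Pf4 to Ppbp counts was 2.03, 3.13 and 3.18 in DMSO and 1.15, 1.20 and 1.84 in AMLE, lower in every AMLE library. It too was chosen after its values were seen.

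Other genes of megakaryocytes and platelets moved with Ppbp. All 10 markers listed for these cells were tested and called higher, by 0.73 (Tubb1, a platelet tubulin) to 2.24 (Gp6, the platelet collagen receptor) on the log2 scale. Their median was 1.25, while that of all tested genes was −0.0050. Fits that left out 1 library called 7 to 10 of them. Itga2b, integrin alpha IIb, held most of their reads, with 56.4, 64.1 and 41.1 CPM in DMSO and 136, 145 and 83.4 in AMLE. Their summed level ran from 83.2 to 108 CPM in DMSO and from 170 to 244 CPM in AMLE, and none was at 0. Replicate 3 was the lowest library of its group for 9 of the 10 markers in DMSO and for 9 in AMLE, all but Vwf, as it was for Ppbp and Pf4. That order is not particular to platelet genes, since Cxcr2, Mcpt8, S100a9 and Irf7 were also lowest in replicate 3 of both groups. Its share over all genes was not taken. The part of these cells in the rise of Ppbp was not tested. In bulk RNA, more cells of a type and more RNA per cell cannot be told apart.

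**Figure D3:**
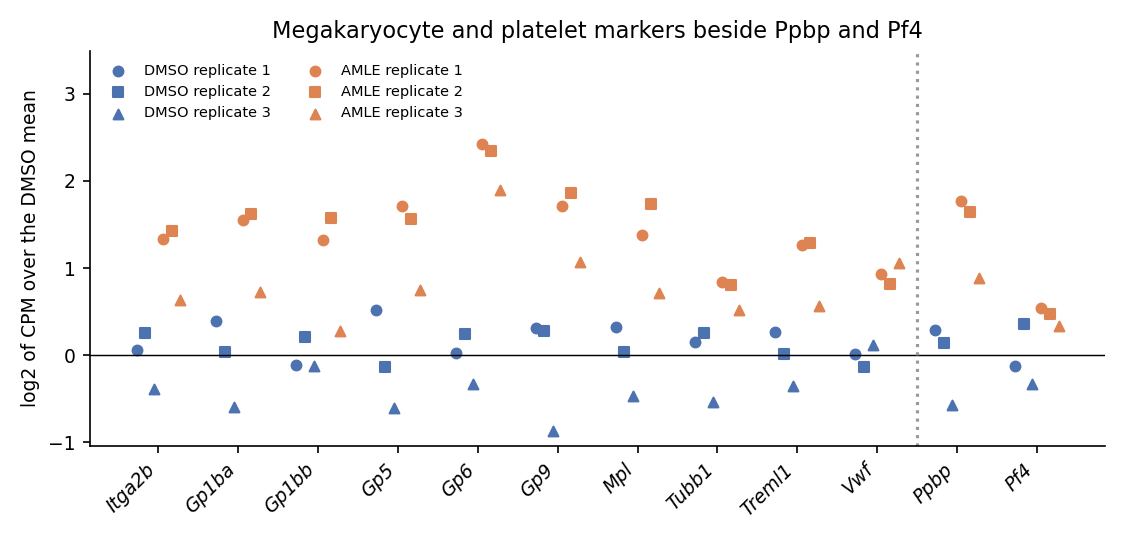
Log2 of each library's CPM over the DMSO mean (vertical axis) for 10 megakaryocyte and platelet markers and, right of the dotted line, Ppbp and Pf4. Colours are groups and symbols are replicates. All AMLE points of the 10 markers and Ppbp lie above the DMSO points of the same gene, and Pf4 overlaps.

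The interferon-induced members went the other way or were too low to test. Cxcl10 had 82, 88 and 80 counts in DMSO and 47, 50 and 49 in AMLE, or 2.61, 3.09 and 2.76 against 1.83, 1.46 and 1.87 CPM. The log2 fold change was −0.72 ± 0.17 (edgeR adjusted p = 0.011), 1.65-fold lower, with no overlap of the groups. It was called in all 12 alternatives, with adjusted p from 0.0094 to 0.045. Cxcl9 had 2, 3 and 6 counts in DMSO and 1, 1 and 2 in AMLE. The sums of 11 counts (95% exact Poisson interval 5.49 to 19.7) and 4 counts (1.09 to 10.2) cover counting error only. With no low-count filter its log2 fold change was −1.34 ± 0.79 (edgeR adjusted p = 0.23), so no difference was detectable at this depth.

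Summed over the 5 neutrophil-attracting members, the level was 95.6, 116 and 68.8 CPM in DMSO and 307, 215 and 278 CPM in AMLE. The sum of Cxcl9 and Cxcl10 was 2.67, 3.20 and 2.96 CPM in DMSO and 1.86, 1.49 and 1.95 CPM in AMLE. The former sum was higher and the latter lower in every AMLE library than in any DMSO library. Within a library, Cxcl3 counts were 15.7, 19.0 and 11.8 times those of Cxcl10 in DMSO and 91.4, 68.8 and 86.4 times in AMLE. For Cxcl1, the ratio to Cxcl10 was 0.268, 0.170 and 0.113 in DMSO and 1.32, 0.920 and 0.735 in AMLE. The sums and ratios over chosen members were not tested.

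**Figure D4:**
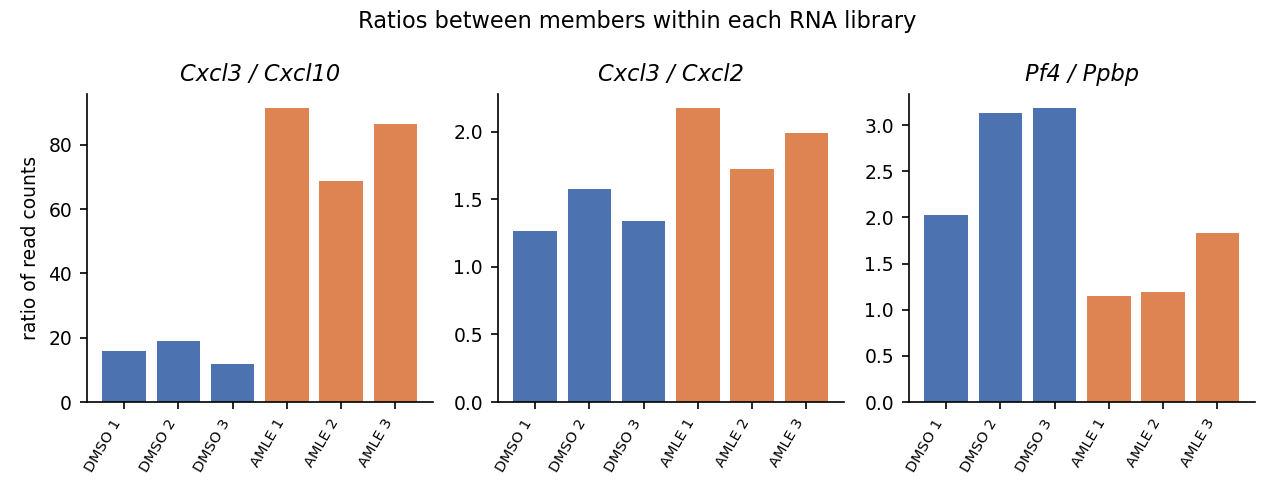
Ratios of read counts between 2 members within each RNA library (vertical axes from 0, own scale per panel). Each bar is 1 library, blue for DMSO and orange for AMLE. Cxcl3 over Cxcl10 is 11.8 to 19.0 in DMSO and 68.8 to 91.4 in AMLE, Cxcl3 over Cxcl2 is higher in every AMLE library, and Pf4 over Ppbp is lower.

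Cxcl16, the membrane chemokine, stood at 165, 196 and 233 CPM in DMSO and 357, 387 and 420 in AMLE. It rose 1.96-fold (0.97 ± 0.13, edgeR adjusted p = 0.0011), with the narrowest SE of the tested members. Its gene overlaps Zmynd15, a zinc finger gene, which also rose (0.81 ± 0.11), from 16.3 ± 1.21 to 28.6 ± 4.15 CPM (SD, n = 3). The strand setting of the counting is unknown, and reads of the shared stretch could fall to either gene. Cxcl14 had 1, 3 and 4 counts in DMSO and 3, 1 and 4 in AMLE, 8 in each group (95% exact Poisson interval 3.45 to 15.8). Its unfiltered log2 fold change was 0.05 ± 0.80 (edgeR adjusted p = 0.99), which leaves a difference undetectable at this depth.

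Of the remaining CXC ligand genes, Cxcl11, Cxcl12, Cxcl13, Cxcl15 and Cxcl17, none of the 5 passed the filter. Cxcl12, the CXCR4 ligand, had 5, 2 and 2 counts in DMSO and 1, 7 and 0 in AMLE, and Cxcl13 had none in any library. Cxcl10 lies inside Art3, whose counts over 3 libraries were 2 in DMSO and 5 in AMLE.

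Of 8 listed receptor genes 5 were tested and all 5 were called higher, with none lower in edgeR (0 also at unadjusted p under 0.05), DESeq2 or limma-voom. Cxcr2, the receptor for the neutrophil attractants, stood at 143, 130 and 79.1 CPM in DMSO and 301, 326 and 170 in AMLE (1.18 ± 0.30, edgeR adjusted p = 0.016). Its call was lost without AMLE replicate 1 (0.052), without AMLE replicate 2 (0.053) and with no low-count filter (0.063). Ackr1, a decoy receptor, rose by 2.13 ± 0.65 to 0.797 CPM in AMLE, and Cxcr5, the receptor for CXCL13, by 1.27 ± 0.17. With 10, 0 and 6 counts in DMSO and 26, 29 and 14 in AMLE, Ackr1 passed the filter only through its AMLE libraries. Cxcr6, the receptor for CXCL16, rose from 0.747 ± 0.410 to 1.76 ± 0.342 CPM (1.24 ± 0.41, edgeR adjusted p = 0.041). Ackr1 and Cxcr6 rest on few reads, and both lost their call without AMLE replicate 1 (edgeR adjusted p = 0.093 and 0.092) or AMLE replicate 2 (0.075 and 0.12). Ackr1 also lost it without DMSO replicate 3 (0.070) and Cxcr6 without DMSO replicate 2 (0.067). Without either of those AMLE libraries 2 receptors were called. Of the receptors not tested, Cxcr3, which binds CXCL9 and CXCL10, had 5, 5 and 13 counts in DMSO and 1, 5 and 0 in AMLE. Cxcr1 had 9, 8 and 7 counts in DMSO and 53, 102 and 9 in AMLE, and Ackr3 had 3 counts over the DMSO libraries and 1 over the AMLE libraries. Of 7 neutrophil markers tested, 5 were called lower and none higher (edgeR, and 0 at unadjusted p under 0.05, in DESeq2 and in limma-voom). Not called were S100a8 (−0.53, edgeR adjusted p = 0.068) and S100a9 (−0.44, 0.13), the markers with the most reads. With the replicate block all 7 markers were called lower. Their sum was 11055 to 17901 CPM in DMSO and 7829 to 11262 CPM in AMLE, so the groups overlapped, with S100a9 taking the most reads. The largest falls were those of Elane, neutrophil elastase, from 120 ± 13.8 to 4.95 ± 2.76 CPM, and Mpo, myeloperoxidase, from 254 ± 56.9 to 31.5 ± 5.87 CPM. The part of these cells in the values of Cxcr2 was not tested.

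Of 19 listed genes of interleukin 1, TNF and NF-kB signalling, 13 were called higher and 2 lower, with a median log2 change of 0.60. With the replicate block 14 were higher and 2 lower. The list mixes inputs, NF-kB subunits and inhibitors. The inhibitor genes Nfkbia, Nfkbib, Nfkbie and Tnfaip3 were among those called higher. Nfkbie lost its call without DMSO replicate 1 (edgeR adjusted p = 0.060) or AMLE replicate 1 (0.058). Of the ligand and receptor genes, Il1a, Il1b and Il1rap were called higher, and Il1r1, Tnf and Tnfrsf1b were not called. Il1rap lost its call without DMSO replicate 1 or 3, or AMLE replicate 1 or 2 (edgeR adjusted p from 0.081 to 0.105). Il1a, an interleukin 1 cytokine that induces these chemokines, rose by 1.99 ± 0.17 from 12.7 ± 2.62 to 50.6 ± 8.06 CPM. The NF-kB subunit gene Rel rose by 1.15 ± 0.08, and Nfkb1, which took the most reads of the list, by 0.66 ± 0.09. Tnfrsf1a, the main TNF receptor (−0.46), and the adaptor gene Myd88 (−0.30) fell. Among 8 regulators of mRNA decay or stability, some of which shorten and some lengthen the life of such transcripts, 4 were called higher and 2 lower. Zfp36l1, an RNA-binding decay factor, rose by 0.62 ± 0.06. Its relative Zfp36l2 fell by 0.85 on the log2 scale, while Traf3ip2, an adaptor that stabilises Cxcl1 mRNA in interleukin 17 signalling, rose by 0.83 ± 0.13.

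Most listed genes of interferon signalling, feedback inhibitors included, rose while Cxcl10 fell. Of 17 tested genes in a list of 19, 13 were called higher, with a median of 0.57, and 0 were called lower in edgeR, DESeq2 and limma-voom (1 at unadjusted p under 0.05 in edgeR). With the replicate block 12 were higher and 1 lower, and without DMSO replicate 2 or AMLE replicate 3 also 1 was lower. The feedback inhibitor genes Socs1, Socs3 and Usp18 were among those called higher. Socs1 lost its call without DMSO replicate 3 (edgeR adjusted p = 0.054), AMLE replicate 1 (0.069) or AMLE replicate 2 (0.069), and with no low-count filter (0.0502). Of the receptor genes, Ifngr2 was called higher, and Ifnar1, Ifnar2 and Ifngr1 were not called. Irf8, an interferon regulatory factor of dendritic cells, rose by 1.88 ± 0.10 and Irf7, which amplifies type I interferon, by 1.28 ± 0.15. Jak2, a kinase that acts at cytokine receptors, took the most reads of the list and rose by 0.72 ± 0.10. Ifnb1 had no count in the DMSO libraries and at most 1 in an AMLE library, and Ifng at most 1 and 3. Of 8 proteases that trim or shed CXC chemokines, 1 was called lower and 0 higher in edgeR (1 higher at unadjusted p under 0.05, 2 in DESeq2, 0 in limma-voom). Ctsg, the neutrophil protease cathepsin G that cleaves the Ppbp product, fell by 1.70 on the log2 scale (SE 0.19). Mmp12, a macrophage elastase, took the most reads of the list (0.44 ± 0.18, edgeR adjusted p = 0.079). Adam10, the sheddase of CXCL16, was at 147 ± 8.45 and 159 ± 2.67 CPM (0.11 ± 0.05, edgeR adjusted p = 0.12). Without AMLE replicate 2, 2 proteases were called higher.

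Among genes of at least 10 CPM on average, those whose centred log2 profile over the 6 libraries lay nearest to that of Cxcl3 were Ddit4 (root-mean-square difference 0.26), Il1a (0.27) and Cxcl2 (0.28). Nearest to Cxcl10 were Cd300a (0.07), Atp5g3 (0.08) and Nlrp3 (0.08). Such distances describe 6 libraries in which the treatment difference is part of every profile.

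In the ATAC libraries, open chromatin lay at some members in all 4 libraries and was not called near others in any. The authors' peaks were merged into 24542 regions, and 12 of them overlapped a member or lay within 10 kb of one. Of these 12, 7 were called in all 4 libraries, 1 in both DMSO and no AMLE library, and 0 in both AMLE and no DMSO library. The shares over all regions were 49.0%, 5.95% and 0.460%. The lists held 18460 and 19225 distinct peaks in DMSO and 15805 and 15597 in AMLE, so a region missing from AMLE has to be read beside shorter lists. With 2 libraries per group no test was made. Peak folds are the authors' enrichment over local background and describe a peak within its own list.

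Cxcl2 had the firmest promoter peak. The region at chr5:90903301-90904336 covered its start and its NF-kB matches in all 4 libraries, with folds of 10.4 and 13.2 in DMSO and 13.1 and 13.2 in AMLE. By −log10 q it stood above 92.9% and 93.0% of the peaks in the DMSO lists and 95.1% and 96.0% in the AMLE lists. At Cxcl3, the region chr5:90785904-90786581 also covered the NF-kB matches in all 4 libraries, but with folds of 2.57 and 5.14 in DMSO and 4.92 and 6.38 in AMLE. A second region past the end of Cxcl3, chr5:90788583-90789962, was called in all 4 as well. At Cxcl1 a promoter peak was called only in AMLE replicate 1, at chr5:90891153-90891448 with a fold of 3.41 and a −log10 q of 1.44, barely past the smallest values in the lists (1.31). A region 9126 bases upstream of Cxcl1, chr5:90881557-90882119, was called in all 4 libraries with folds of 12.2 to 13.3 and overlapped no annotated gene.

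Cxcl5, Ppbp, Pf4, Cxcl9 and Cxcl14 had no region within 10 kb in any library. The nearest lay 16.9 kb from Cxcl5, 15.8 kb from Ppbp and 12.5 kb from Pf4, the last 2 being the promoter region of Cxcl3. Cxcl10 had 1 region, chr5:92348912-92349731, which covered its NF-kB and interferon elements but was called only in DMSO replicate 2, with a fold of 4.20. Cxcl16 had 5 regions within 10 kb. That at chr11:70459449-70460042, over an end of the gene shared with Zmynd15, was called in all 4 libraries with folds of 7.86 and 8.82 in DMSO and 6.90 and 8.46 in AMLE. The region called in both DMSO libraries and neither AMLE library, chr11:70453315-70453631, overlapped the neighbouring gene Med11 and had low folds of 2.58 and 2.05.

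Of the 8 members with a RefSeq start, 2 (Cxcl2 and Cxcl3) had a peak within 1 kb of it in all 4 libraries and 4 had none in any. Among 9978 genes tested in RNA with such a start, 67.8% had a peak in all 4 and 19.8% in none. That set is not like for like, because Cxcl9 and Cxcl14, both without a peak, were not tested in RNA. Of all 27025 genes with a start, tested or not, 8117 had a peak in all 4 and 16982 in none. Cxcl5, which had no RefSeq start here, and Ppbp rose by 2.28 and 1.48 on the log2 scale in RNA. Neither had a called peak within 10 kb in the DMSO or the AMLE libraries. A peak that was not called is not evidence of closed chromatin at these list sizes.

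**Figure D5:**
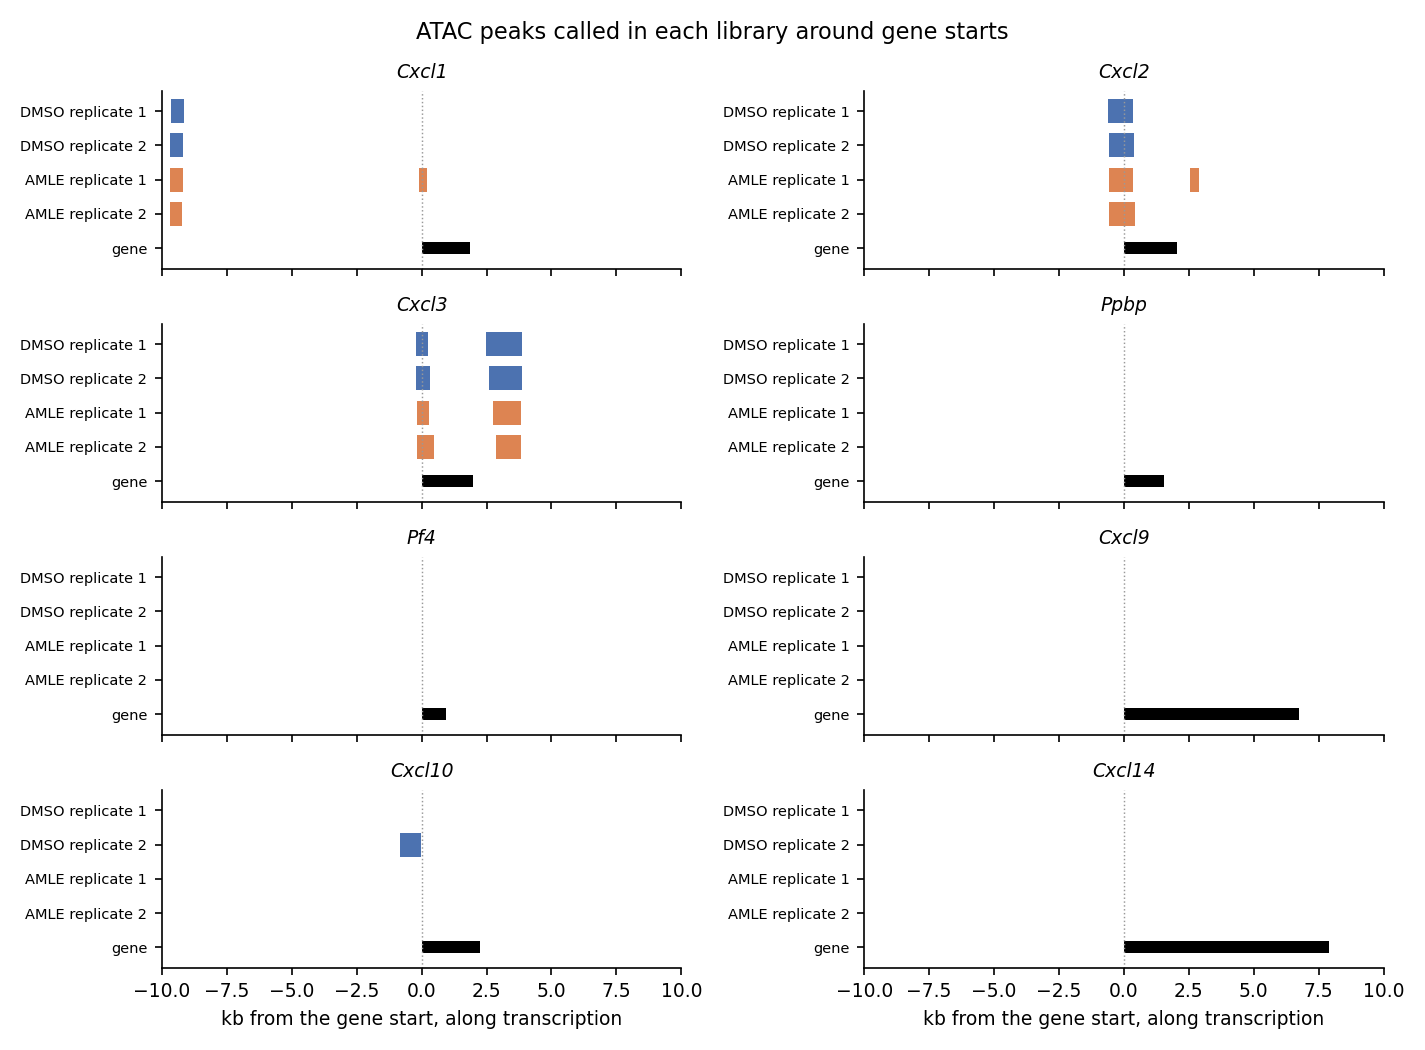
Peaks called in each ATAC library (rows, DMSO blue and AMLE orange) within 10 kb of the start of 8 CXC chemokine genes (horizontal axis, kb from the start along transcription). Black bars are the genes. Peaks lie over the starts of Cxcl2 and Cxcl3 in all 4 libraries, over that of Cxcl1 in 1 AMLE library and beside that of Cxcl10 in 1 DMSO library.

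The dendritic cell label was checked against 7 markers, none of which was at 0, and they did not move together. Itgax, which encodes CD11c, was at 708 ± 101 CPM in DMSO and 688 ± 78.6 in AMLE, and Cd74, the invariant chain of MHC class II, at 3931 ± 885 and 3205 ± 322, and neither was called. Called higher were Flt3, a growth factor receptor of dendritic cell precursors (4.81-fold), Ccr7, which guides mature dendritic cells to lymph nodes (2.74-fold), and Zbtb46 (1.84-fold). Called lower were the lectin gene Cd209a (30.6-fold), and the MHC class II gene H2-Ab1 (1.62-fold). H2-Ab1 was no longer called when AMLE replicate 1 or 2, DMSO replicate 2 or 3, or the filter was left out. With the replicate block 3 of the 7 were lower. Their sum was 5253 to 7913 CPM in DMSO and 5989 to 6879 CPM in AMLE.

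Markers of other cells were present too. Macrophage markers summed to 1733 to 2102 CPM in DMSO and 1035 to 1773 in AMLE, with 4 of 8 called lower and 1 higher. With the replicate block 5 were lower and 1 higher. The complement genes C1qa, C1qb and C1qc were 31.8-, 23.0- and 23.5-fold lower, C1qa going from 52.6 ± 27.9 to 1.71 ± 1.19 CPM. Mrc1, the mannose receptor, was 5.01-fold lower, and its call was lost without AMLE replicate 1 (edgeR adjusted p = 0.051) and with no low-count filter (0.071). Csf1r, which took the most reads of the list, was at 1062 ± 72.2 and 933 ± 289 CPM and was not called. Adgre1, which encodes F4/80, was 1.16-fold higher, and was not called without DMSO replicate 1 or 3, or AMLE replicate 1 or 2. Mast cell and basophil markers summed to 187 to 313 CPM and 304 to 570 CPM, with 3 of 6 called higher. Prss34, a basophil protease, took the most reads and was not called, and Cpa3, a mast cell protease, went from 34.4 ± 4.65 to 90.7 ± 30.0 CPM. With the replicate block, and without AMLE replicate 3, 5 were called higher. Without DMSO replicate 1 it was 2, and without any 1 of DMSO replicates 2 and 3 and AMLE replicates 1 and 2 it was 1. Stromal and endothelial markers summed to at most 34.9 CPM in DMSO and 95.7 in AMLE, with 1 of 3 tested higher and 1 lower. Pecam1, an endothelial and platelet adhesion gene, was 27.6 ± 6.43 and 70.4 ± 29.8 CPM of this. Leaving out AMLE replicate 1, AMLE replicate 2 or DMSO replicate 3, or the low-count filter, ended its call. The 1 lower was Col1a1, a collagen gene with 86 counts in DMSO and 49 in AMLE. It was not called in DESeq2 (adjusted p = 0.11) or without any 1 library other than AMLE replicate 3. Lymphocyte markers, led by Cd79a, summed to at most 21.4 CPM in either group. None of 3 tested was called in edgeR (1 at unadjusted p under 0.05, 0 in DESeq2 and limma-voom, 1 with the block and without DMSO replicate 2 or AMLE replicate 3). The part of these cells in the chemokine changes was not tested. Total counts per RNA library ran from 26010455 to 34208286.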

How the data were processed

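RNA was measured in 6 libraries and open chromatin in 4, grouped by the sample titles. The authors deposited raw read counts per gene symbol and 1 peak list per ATAC library with a fold enrichment (a ratio) and a −log10 q value per summit. Per the submitters' processing notes the tools included Trim Galore 0.6.7, STAR 2.7.11b, Bowtie2 2.4.4 and MACS3 3.0.0a7 with build mm10. The counting tool, strand setting, annotation and peak settings were not given in the sources used here. Per the labels' protocols the RNA libraries were stranded and mRNA-selected, and ATAC used 100000 cells with transposase for 30 min at 37 °C.

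Counts were tested with edgeR 4.0.16 in R 4.3.3 (TMM, default low-count filter with a minimum count of 10, robust quasi-likelihood F test, two-sided) over 13075 genes, and called at a Benjamini-Hochberg adjusted p below 0.05. SE was derived by dividing the size of the log2 fold change by the root of F, and levels are CPM with SD. DESeq2 1.42.0, limma-voom (limma 3.58.1), RLE scaling, no filter, a replicate block and left-out libraries were alternatives. The fit was run on simulated counts with 200 changed genes, while the data gave 3004 calls higher and 3346 lower. That run therefore does not cover changes this widespread. Deviations from the group means of same-numbered libraries correlated at 0.29, 0.28 and 0.43 over genes. Differently numbered pairs of replicates 1 and 2 gave 0.11 and 0.11, and pairs of either with replicate 3 gave −0.31 to −0.27. The numbers thus match by the data, with less contrast between 1 and 2, and the labels state no pairing. The values reported come from the fit without the block, and the block is given where it changes a member's call or the count of calls in a list. Overlapping peaks were merged into regions.

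The members and all gene lists were chosen with earlier results of these data known. Named genes are the members, in each pathway list the gene with the most reads and the 2 called genes with the largest change at a mean of at least 1 CPM, and in each marker list the gene with the most reads. Other genes were named after their values were seen. Of the listed genes, Ly6g had no entry. The consensus peak lists equalled the intersections of the replicate lists and were not used.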

Additional observations from a re-analysis of the deposited data

How the results depend on the processing

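Over 12 alternative fits, Cxcl1, Cxcl2, Cxcl5, Ppbp, Cxcl10 and Cxcl16 kept their direction and their call in each. Cxcl3 kept its direction and lost its call with the replicate block and without both libraries numbered 3, and Pf4 gained one in 4 fits. The block changed no other member's call. Leaving out 1 library gave 6 to 7 members higher and 1 lower, and leaving out both numbered 3 gave 5 and 1. With the replicate block 6 members were higher and 1 lower, and the log2 fold change of Cxcl3 was 1.70. The count of regions called in all 4 libraries was 13 with a window of 50 kb. Regions called in both DMSO and no AMLE library numbered 2 with that window and 0 at a −log10 q of at least 5. At that threshold 1 member promoter, that of Cxcl2, was called in all 4 libraries. The wider window takes in more regions, and the stricter threshold keeps fewer peaks. Cxcl9 and Cxcl14 are limited by their few counts, and the 2 ATAC libraries per group limit what a missing peak can show.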

Other observations

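Between 10 and 50 kb from the chemokine genes lay 12 more regions, of which 6 were called in all 4 libraries, as were 49.0% of all regions. The region chr5:90742015-90742407, 16.9 kb from Cxcl5 and over no annotated gene, was called in both DMSO libraries with folds of 13.6 and 13.4 and in AMLE replicate 2 with 8.59, but not in AMLE replicate 1. The region chr5:92309719-92310267, 11.1 kb from Cxcl9 and over Sdad1, was called in both DMSO libraries (folds of 8.20 and 9.19) and in neither AMLE library. Of all regions 5.95% were called in that way, and the AMLE lists were shorter. Inside Art3, 25.9 kb from Cxcl10, chr5:92374786-92375872 was called in all 4 libraries with folds of 3.61 to 6.17. Which gene any of these regions serves was not tested.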
